A study of Mus musculus with 36 samples.

Results

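The genes described here encode proteins that cut cytosolic tRNAs or protect them from being cut, and the Argonaute protein Ago2, which binds small RNAs. They are 6 of the 55991 genes listed in at least 1 of the count tables: Ang, Rnh1, Trdmt1, Nsun2, Dicer1 and Ago2. They were chosen by name for these known roles and not by their measured values, though earlier results of these data were known. All 6 were listed in each of the 6 tables. The mice were wildtype C57BL/6, bought as C57BL/6N per the methods. For 2 weeks males ate a diet high in fat (HFD) or low in fat (LFD), and RNA was sequenced from their cauda sperm after swim-up, with 3 libraries per diet, and from round spermatids purified on a density gradient, with 6 libraries in which the columns do not give the diet. Morulae were made by in vitro fertilization with sperm of LFD or HFD fathers and oocytes of unexposed females, with 3 libraries per diet of the father. Liver, epididymal white fat (eWAT) and gastrocnemius muscle came from chow-fed male offspring of HFD fathers, 3 HFD tolerant (HFDt) and 3 HFD intolerant (HFDi) per tissue. The columns of those tables do not give that label either, so each tissue was treated as 1 group of 6 libraries. No source used here says which sperm or morula libraries came from separate animals or pools, so p-values measure only the spread between these libraries.

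Angiogenin, the product of Ang, is a secreted ribonuclease of the RNase A family that cuts mature tRNAs in the anticodon loop when cells are stressed. Ribonuclease inhibitor, encoded by Rnh1, binds angiogenin tightly and blocks it. The RNA methyltransferases Trdmt1 (also called Dnmt2) and Nsun2 add methyl groups to cytosines of tRNAs, which makes them harder to cut. Dicer1 processes microRNA precursors and can also cut some tRNAs, and Ago2 is the Argonaute protein that binds small RNAs and slices their targets. Fragments of tRNAs are abundant in mature sperm. The values below are counts of reads per gene of these enzymes, and the fragments themselves were not analysed here.

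In GRCm38, Ang spans chromosome 14 from 51091150 to 51102009 (plus strand), inside the span of Rnase4 (51091077 to 51106151), which encodes a related secreted ribonuclease. The annotation of most tables gives Ang 1202 exonic bases, of which 219 (18.2%) are also exonic in Rnase4. In the annotation of the round spermatid table the overlap was 651 of 1273 bases (51.1%). Reads in those bases cannot be assigned to either gene with certainty. RefSeq promoter windows, 250 bases before to 50 after a start site, were found for 5 of the 6 members. Ago2 had no entry. Ang and Rnase4 have the same window, on chr14:51090827-51091126, plus strand of GRCm38.p6. Rnase4 has another downstream, chr14:51095750-51096049. Both are printed because the levels of this gene pair are compared below. Capitals mark the CCAAT box (CCAAT) and the GC box (GGGCGG), each searched on both strands.

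Ang and Rnase4, shared: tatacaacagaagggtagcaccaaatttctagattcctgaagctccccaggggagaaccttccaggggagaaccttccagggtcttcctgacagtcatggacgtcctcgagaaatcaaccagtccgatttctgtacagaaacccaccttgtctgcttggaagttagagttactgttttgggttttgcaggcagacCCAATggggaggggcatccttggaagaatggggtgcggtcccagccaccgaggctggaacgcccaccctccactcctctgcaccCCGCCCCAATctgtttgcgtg

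Rnase4, downstream: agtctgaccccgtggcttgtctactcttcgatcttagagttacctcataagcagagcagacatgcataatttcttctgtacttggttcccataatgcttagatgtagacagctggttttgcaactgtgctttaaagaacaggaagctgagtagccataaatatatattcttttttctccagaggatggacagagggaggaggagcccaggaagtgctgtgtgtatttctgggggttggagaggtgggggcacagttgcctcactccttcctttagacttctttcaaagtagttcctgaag

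The shared window holds CCAAT at positions -55 and 35 from the start site and a GC box on the minus strand at position 30, which shares its last base with the second CCAAT. The downstream window holds neither. CCAAT occurs in 37.4% of the 32817 RefSeq mouse windows of this length, and GGGCGG in 35.6%. Neither the TATA box (TATAAA), held by 13.6% of windows, nor the half-site of the liver factor HNF1 (GTTAAT), held by 7.1%, occurs in either window. These matches describe letters and not bound sites. Of the other members, the window of Dicer1 (GC content 77.3%) holds GC boxes and a CCAAT, 2 of the 3 windows of Rnh1 hold GC boxes and the other a TATA box, and those of Trdmt1 and Nsun2 (both 55.3%) hold none of the motifs. The median over all windows was 52.7%.

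Library totals ran from 2560219 to 4062321 counts in sperm, 20138842 to 31056066 in round spermatids, 11471251 to 12153141 in morulae, 2036237 to 2552454 in liver, 1338149 to 4055537 in eWAT and 369772 to 2749920 in gastrocnemius. A count of 0 allows 3 counts, which is up to 1.17 CPM (counts per 1e6 counts of the library) in the shallowest sperm library and 8.11 CPM in the shallowest gastrocnemius library, for counting error only. The share of counts on mitochondrial DNA was 43.5 to 84.3% in sperm and 1.96 to 2.38% in round spermatids, and it ran from 15.1 to 45.5% over the other tissues. Sperm, round spermatid and morula libraries were Nextera libraries, whose levels are given per kilobase where genes are compared. The methods describe the round spermatid libraries as total RNA depleted of ribosomal RNA, so in comparisons with sperm and morulae tissue and preparation cannot be told apart. The offspring tissues were QuantSeq 3′ libraries, and levels were not compared between the kits, apart from the correlations over all 36 libraries below. Every tissue showed counts for all 6 of its own markers. This does not set the tissues apart, since eWAT also had counts for all 6 sperm, round spermatid, liver and gastrocnemius markers. In sperm the 6 leukocyte markers, including Ptprc and Lyz2, summed to 284 to 3962 CPM, against 5.61 to 10.2 CPM in round spermatids, and the 8 markers of epididymal epithelium to 1598 to 23516 CPM against 84.6 to 105. Of these 8, Lcn9 and Spint4 had no counts in sperm and Lcn8 had none in HFD sperm, while round spermatids had counts for all 8. In round spermatids the 4 markers of pachytene spermatocytes summed to 609 to 711 CPM, of which Piwil1 alone had a mean of 309. The 6 markers of Sertoli and Leydig cells summed to 23.1 to 34.2 CPM there. The part of such cells in the values below was not tested. In bulk RNA, fewer cells of a type and less RNA per cell cannot be told apart.

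Among the offspring tissues Ang was highest in liver, and few Ang counts were found in the germline. In liver its level was 211, 264, 266, 267, 330 and 381 CPM, a mean of 286 ± 59.6 CPM (SD, n = 6). In eWAT it lay between 12.4 and 23.2 CPM (18.01 ± 4.99, n = 6), and in gastrocnemius between 0 and 3.64 CPM (2.04 ± 1.44, n = 6), where the library at 0 was the shallowest. The ranges of the offspring tissues did not overlap. On the log2(CPM + 1) scale liver exceeded eWAT by 3.94 and gastrocnemius by 6.71, and eWAT exceeded gastrocnemius by 2.78 (each p = 0.0021645 by an exact two-sided permutation test, the smallest that 924 arrangements of 6 against 6 allow, adjusted p = 0.0038961 over 36 tests of member and tissue pair). Each passed in all 16 alternatives run, the shallowest library left out among them. The 6 liver markers, which include albumin and apolipoprotein A1, summed to 82.2 to 819 CPM in eWAT and to 46475 to 69539 CPM in liver. The adipocyte markers summed to 208 to 1032 CPM in gastrocnemius and to 16480 to 30321 CPM in eWAT. The part of such RNA in the Ang values of eWAT and gastrocnemius was not tested.

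In sperm only 4 Ang counts were found over all 6 libraries, and 3 of the libraries had 0, of which the shallowest could have missed up to 1.03 CPM. Round spermatids, which were sequenced deepest, had 6 Ang counts in all and a level of 0.0389 ± 0.0234 CPM (n = 6). Morulae had 46. The level per kilobase was 0.536 ± 0.591 CPM in morulae, 0.188 ± 0.256 in sperm and 0.0306 ± 0.0184 in round spermatids. Round spermatids and morulae differed on the log2(CPM + 1) scale by -0.57 (exact permutation test, adjusted p = 0.0218). Over the alternatives run, that adjusted p lay between 0.0041 and 0.0689, and the value for round spermatids rests on the annotation with the larger overlap. Neither difference between sperm and these tissues passed the test (adjusted p = 0.211 and 0.213).

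Rnase4 followed the same order of tissues but fell less steeply. It stood at 444 ± 104 CPM in liver, 123 ± 32.7 in eWAT and 25.1 ± 7.05 in gastrocnemius (n = 6 each). Ang counts per 100 Rnase4 counts were 69.1 ± 28.5 in liver, from 41.2 to 124, and 15.2 ± 4.29 in eWAT, from 8.61 to 19.6. In gastrocnemius they were 10.2 ± 9.37, from 0 to 23.8. Liver lay above both other tissues with no overlap (exact permutation test, adjusted p = 0.0025974 over 6 ratio tests), and eWAT and gastrocnemius overlapped (p = 0.262). In sperm Rnase4 reached 5.16 ± 4.03 CPM, with 93 counts against the 4 of Ang.

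The level of Ang was also set against that of its inhibitor. Rnh1, on chromosome 7 from 141160326 to 141172857 on the minus strand, was measured at 60.1 ± 16.8 CPM in eWAT, 40.5 ± 5.58 in liver and 22.6 ± 4.01 in gastrocnemius (n = 6 each). Its gastrocnemius values, 16.2 to 27.2 CPM, lay below those of liver, 35.4 to 51.0, and of eWAT, 41.8 to 86.0, without overlap. The log2 differences were 0.82 for liver and 1.35 for eWAT (exact permutation test, adjusted p = 0.0038961 each). Liver lay below eWAT by 0.52 (adjusted p = 0.0106), a difference of 0.39 with adjusted p = 0.0812 as CPM of nuclear counts. Per 100 Rnh1 counts, liver held 718 ± 178 Ang counts (517 to 932), eWAT 31.5 ± 10.5 (16.6 to 45.2) and gastrocnemius 8.57 ± 6.01 (0 to 16). No pair of these tissues overlapped (adjusted p = 0.0025974 each). In the germline Ang per 100 Rnh1 counts was at most 2.63 in sperm and 1.47 in round spermatids, and in morulae it ran from 0 to 79.3.

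**Figure D1:**
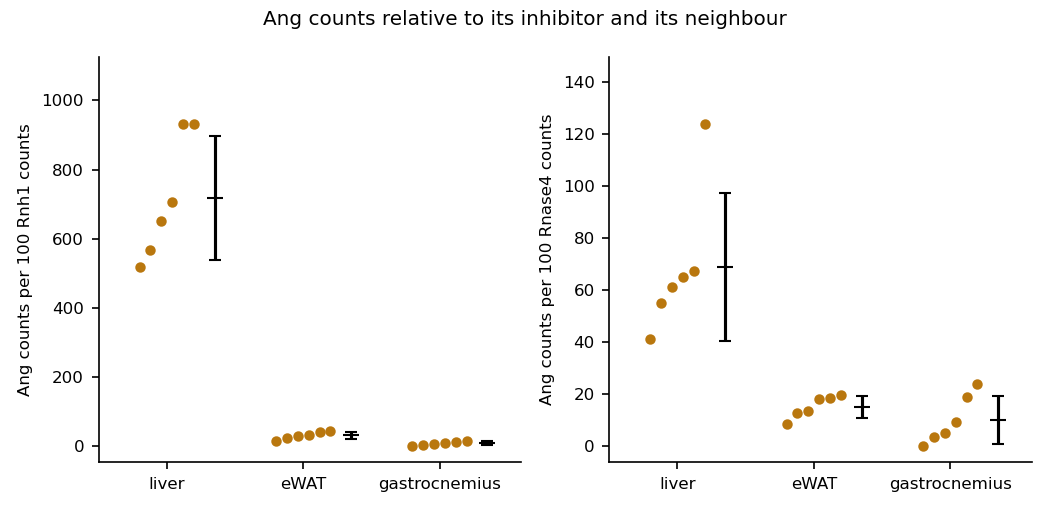
Ang counts per 100 counts of its inhibitor Rnh1 (left) and of its neighbour Rnase4 (right) in the offspring tissues. Each point is 1 of 6 libraries, black bars are mean ± SD. Every liver library lies above every library of the other tissues in both panels, and against Rnase4 the eWAT and gastrocnemius libraries overlap.

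Rnh1 was low in round spermatids, 4.28 to 5.31 CPM (4.83 ± 0.364), and in morulae, 1.32 to 4.47 CPM (3.15 ± 1.13). In sperm, with both diets together, it varied from 1.34 to 39.1 CPM (16.1 ± 14.8). By diet it was 4.65 ± 4.19 CPM on HFD and 27.6 ± 11.6 on LFD (n = 3 each). The pooled range covered both other germline tissues, and neither difference passed the test as CPM of all counts (adjusted p = 0.211 and 0.0749). As CPM of nuclear counts, which leaves mitochondrial DNA out, sperm held 43.0 ± 28.0 against 4.94 ± 0.366 and 4.22 ± 1.54, and both differences passed (log2 difference 2.54 and 2.79, exact permutation test, adjusted p = 0.00487 each).

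Of the tRNA methyltransferases, Trdmt1 was below 5 CPM on average in every tissue, and Nsun2 was lower in sperm than in round spermatids and morulae. Trdmt1, on chromosome 2 from 13509014 to 13544668 on the minus strand, stood at 4.73 ± 0.565 CPM in round spermatids, 3.98 ± 0.877 in morulae and 1.45 ± 1.40 in sperm, where 27 counts were found in all. In liver 5 counts were found in 6 libraries, or 0.364 ± 0.331 CPM, against 2.49 ± 0.932 in eWAT and 2.96 ± 1.91 in gastrocnemius. Liver lay below eWAT without overlap (log2 difference -1.35, adjusted p = 0.0038961, exact permutation test), and below gastrocnemius by 1.36 on the same scale (adjusted p = 0.0218). The latter did not pass under every alternative run. The lower level of sperm passed as CPM of all counts (adjusted p = 0.0038961 against both) and not as CPM of nuclear counts (adjusted p = 0.435 and 0.339).

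Nsun2, on chromosome 13 from 69533746 to 69635780 on the plus strand, varied little in round spermatids, at 201 to 217 CPM (207 ± 5.81), and in morulae at 148 to 193.8 CPM (179 ± 15.7). Sperm had 0.815 to 33.2 CPM (17.3 ± 13.7) and overlapped with neither. The log2 difference was -4.06 from round spermatids and -3.85 from morulae (exact permutation test, adjusted p = 0.0038961 each), and as CPM of nuclear counts it was still -2.48 and -2.65 (adjusted p = 0.00487). The order of round spermatids and morulae depended on the denominator: round spermatids were higher by 0.22 as CPM of all counts and lower by 0.17 as CPM of nuclear counts, and both differences passed (adjusted p = 0.0038961 and 0.0273). In the offspring Nsun2 was lowest in gastrocnemius, 29.9 to 78.4 CPM (48.7 ± 16.5), below liver (135 ± 23.3) and eWAT (172 ± 53.3) without overlap in either case. Of its exonic bases 469 (8.18%) lie opposite to Gm17108 and 165 (2.88%) opposite to Tent4a, and the strand setting of the counting is not given in the sources used here.

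Dicer1 and Ago2 were both higher in morulae than in round spermatids. Ago2, on chromosome 15 from 73095844 to 73184935 on the minus strand, reached 951 to 1427 CPM in morulae, a mean of 1282 ± 174 (n = 6). Round spermatids held 45.3 to 58.9 CPM (51.8 ± 5.09) and sperm 2.72 to 86.3 CPM (39.7 ± 35.1). Morulae therefore overlapped with neither, and were higher on the log2(CPM + 1) scale by 4.60 and 5.79 (exact permutation test, adjusted p = 0.0038961 each). Per kilobase Ago2 was the member with the highest level in morulae, at 91.4 ± 12.4 CPM, ahead of Nsun2 at 31.2 ± 2.74 and Dicer1 at 7.45 ± 1.10. In round spermatids Nsun2 led with 36.1 ± 1.01 CPM per kilobase, and Ago2 followed with 3.78 ± 0.371. In sperm the means per kilobase lay between 2.72 and 6.21 for Rnh1, Nsun2, Ago2 and Dicer1, and their SDs, 1.96 to 5.70, were close to the means, so no order can be read there. These values pool both diets.

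Dicer1, on chromosome 12 from 104687742 to 104751952 on the minus strand, stood at 90.3 to 143 CPM in morulae (125 ± 18.5) and at 12.7 to 20.2 CPM in round spermatids (15.98 ± 3.15). They did not overlap, and the log2 difference of -2.89 passed the test (adjusted p = 0.0038961, exact permutation test). Sperm spread from 0.334 to 85.6 CPM. It lay below morulae by 2.18 (adjusted p = 0.0038961), a difference that did not pass as CPM of nuclear counts (-1.04, adjusted p = 0.387). In the offspring Ago2 was lowest in liver, 26.8 to 33.3 CPM (30.7 ± 2.91), against 74.6 ± 9.52 in eWAT and 64.1 ± 19.1 in gastrocnemius (log2 difference -1.25 and -0.996, adjusted p = 0.0038961 each). Dicer1 stood at 66.1 ± 10.9 CPM in liver, 92.7 ± 16.3 in eWAT and 55.5 ± 8.70 in gastrocnemius. Gastrocnemius lay below eWAT by 0.73 without overlap (adjusted p = 0.0038961), a difference of 0.32 with adjusted p = 0.0812 as CPM of nuclear counts. Liver lay below eWAT by 0.48 (adjusted p = 0.0203), and liver and gastrocnemius did not pass (adjusted p = 0.117).

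**Figure D2:**
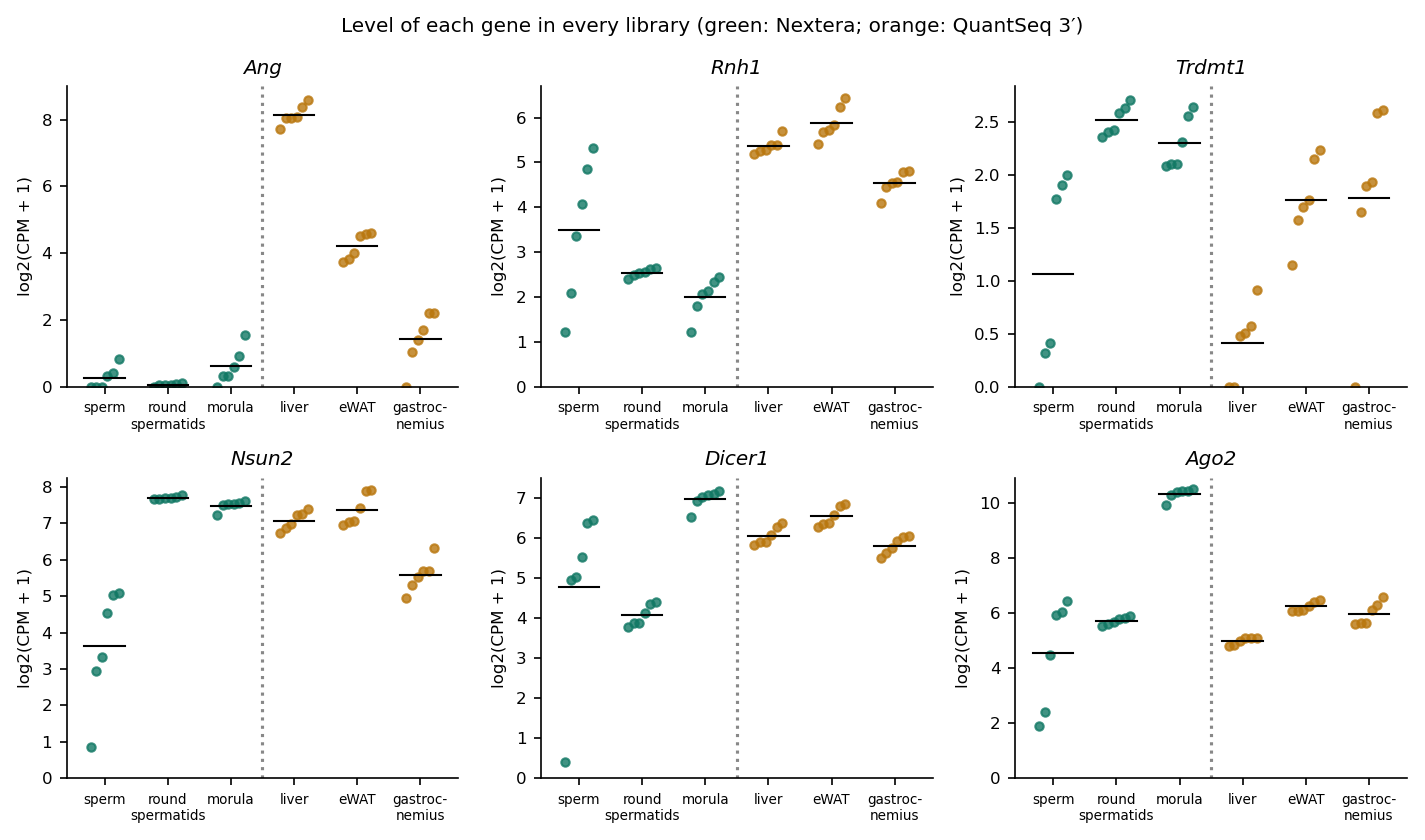
Level of each member in all 36 libraries as log2(CPM + 1), by tissue. Points are libraries sorted by value within a tissue, horizontal lines are means, and the dotted line separates Nextera (green) from QuantSeq 3′ libraries (orange), which are not compared. Sperm and morula points hold both diets. Ang is highest in liver among the QuantSeq tissues, Ago2 and Dicer1 stand higher in morulae than in round spermatids, and the sperm libraries of Rnh1, Nsun2, Dicer1 and Ago2 spread more than those of the other tissues.

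Of the 36 pairs of member and tissue, 25 passed as CPM of all counts and 22 as CPM of nuclear counts. 18 of them passed under both with the same sign, 12 of the 18 in offspring tissues and 6 of the 18 in the germline and embryo. Such differences were common in these tables. Between sperm and round spermatids 2 of the 6 members had ranges without overlap, against 63.1% of all genes with a mean of at least 1 CPM in either tissue. For sperm and morulae it was 4 of 6 against 47.1%, for round spermatids and morulae 3 of 6 against 86%, for liver and eWAT 3 of 6 against 48%, for liver and gastrocnemius 4 of 6 against 38.2%, and for eWAT and gastrocnemius 4 of 6 against 48.3%. The members' shares lie on both sides of these backgrounds and show nothing particular to them.

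The question of the diet comparison was whether the transcripts of these enzymes differ in sperm of males fed the HFD. No member passed the test. edgeR's quasi-likelihood test on counts scaled by TMM (trimmed mean of M values) tested 8643 genes and called none of them (0%) at an adjusted p under 0.05, while 1122 had an unadjusted p under 0.05. DESeq2 called 295 genes, 272 of them higher on HFD, and limma-voom 0. Of the 6 members, Rnh1, Nsun2, Dicer1 and Ago2 passed the filter on low counts. Ang, with 1 count on HFD and 3 on LFD, and Trdmt1, with 12 and 15, did not. For these, the ratio of HFD to LFD could not be bounded closely: it was 0.865 for Ang (95% counting interval 0.0165 to 10.8) and 2.08 for Trdmt1 (0.887 to 4.75), of whose 12 HFD counts 11 came from 1 library.

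Ago2 showed the largest estimate of the members tested. Its TMM-scaled level was 6.14, 8.39 and 29.2 CPM in the HFD libraries and 33.4, 38.1 and 42.5 CPM in the LFD libraries. The groups did not overlap, although the highest HFD library came close to the lowest LFD library. The log2 fold change of HFD over LFD was -1.35 (SE 0.61, edgeR unadjusted p = 0.0436, adjusted p = 0.363). It was 1 of the 4 tested members without overlap, the other 3 overlapping, against 12.3% of all tested genes that were lower on HFD without overlap and 8.12% that were higher. Leaving out each library in turn, the estimate ran from -2.40, without the HFD library of 4062321 counts, to -0.99 and none passed.

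Rnh1 had TMM-scaled levels of 2.58, 7.37 and 13.1 CPM on HFD and 10.4, 15.1 and 17.9 CPM on LFD. The groups overlapped, and the log2 fold change was -0.88 (SE 0.70, adjusted p = 0.638), with a range of -1.55 to -0.49 when each library was left out, the ends being without the HFD libraries of 4062321 and 2994295 counts. Nsun2 stood at 1.84, 12.7 and 12.9 CPM on HFD and 12.9, 14.3 and 21.0 on LFD, with a log2 fold change of -0.79 (SE 0.71, adjusted p = 0.689). Leaving out the HFD library of 3679276 counts gave -0.33, leaving out the LFD library of 2913166 counts gave -0.50, and the lowest value with another left out was -1.14. For Dicer1 the HFD libraries differed among themselves: 0.646, 42.0 and 70.7 CPM, or 1 count in the library of 2994295 counts against 122 and 115 in the others. The LFD libraries had 29.4, 31.5 and 54.9 CPM, and the log2 fold change was -0.03 (SE 0.83, adjusted p = 0.992). Without the library holding 1 count it was 0.52.

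These estimates depend on the scaling. The HFD libraries had 78.1 to 84.3% of their counts on mitochondrial DNA and the LFD libraries 43.5 to 64.7%, without overlap, and TMM gave the HFD libraries factors of 0.442 to 0.716, against 1.52 to 2.58 for LFD. Scaled to library totals, the estimates over the tested genes had a median of -1.82 in place of -0.07, and 3266 genes were called, 3265 of them lower on HFD. On that scale Ago2 fell by 2.89 (SE 0.76, adjusted p = 0.0142), Rnh1 by 2.54 (SE 0.82, adjusted p = 0.0255) and Nsun2 by 2.39 (SE 0.81, adjusted p = 0.0305) on the log2 scale. Relative to the median of all genes these were -1.08, -0.73 and -0.57. Dicer1 had -1.77 (SE 0.84, edgeR adjusted p = 0.0901), or 0.04 relative to that median. All 4 tested members had CPM of totals without overlap, against 57.2% of all tested genes. Over all alternatives the adjusted p ran from 0.0142 to 0.799 for Ago2, 0.0255 to 0.95 for Rnh1 and 0.0305 to 0.925 for Nsun2. The makeup of the libraries moved with the diet as well. The sperm markers, such as the protamines Prm1 and Prm2, summed to 7799 to 24408 TMM-scaled CPM on HFD and 1653 to 6550 on LFD, without overlap. They overlapped on library totals, at 5582 to 10796 CPM against 4268 to 9946, and as CPM of nuclear counts. The leukocyte markers summed to 642 to 1152 TMM-scaled CPM on HFD and 1036 to 1535 on LFD, with overlap. On library totals they summed to 284 to 824 against 1573 to 3962 CPM, without overlap. As CPM of nuclear counts they did not overlap either, at 1354 to 3763 on HFD and 4294 to 7009 on LFD. The epididymal markers overlapped on each of these scales, with 1598 to 2605 CPM of totals on HFD and 2479 to 23516 on LFD. The part of these differences in the member values was not tested.

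**Figure D3:**
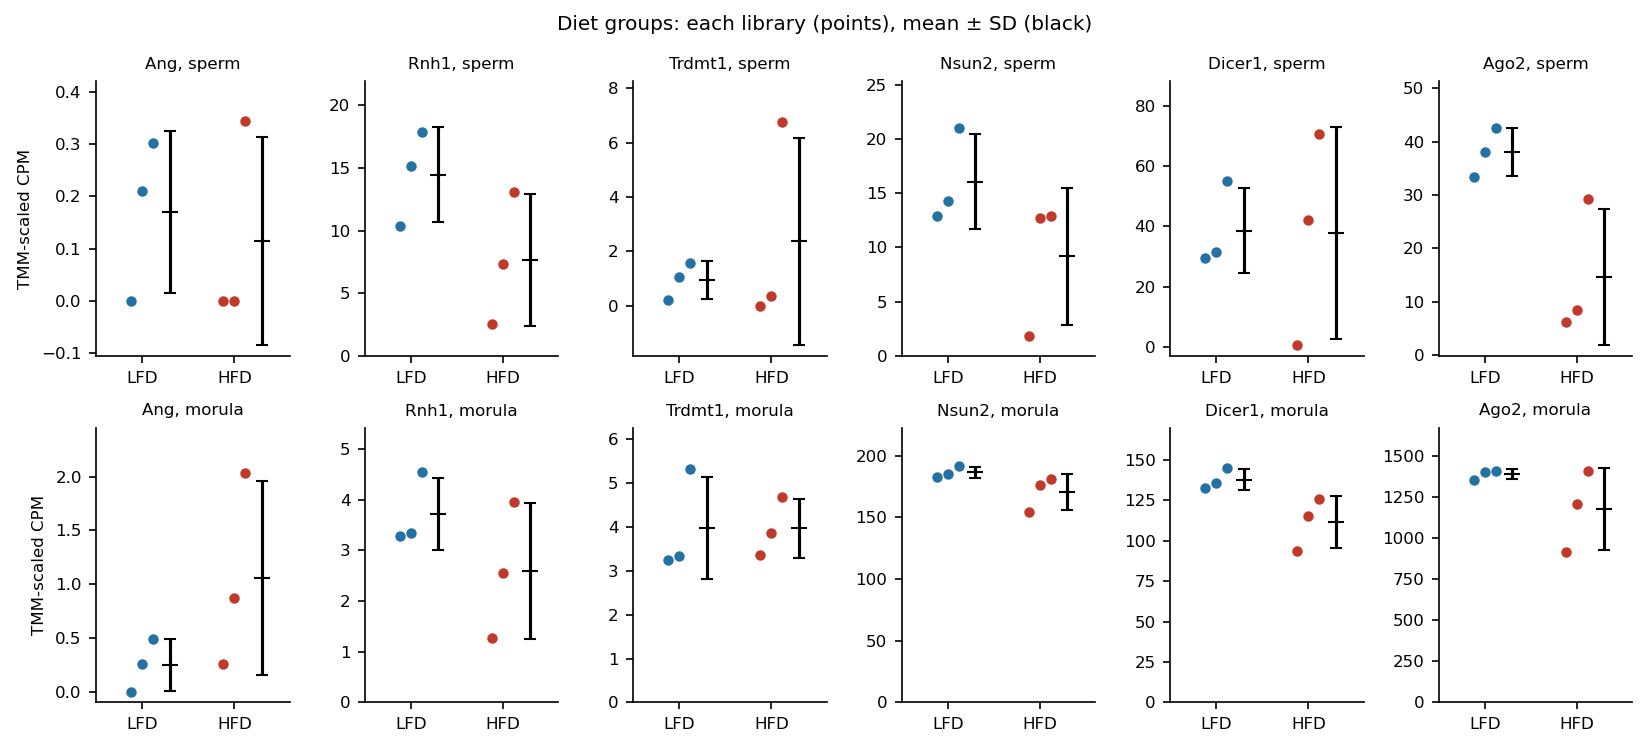
TMM-scaled CPM of each member in sperm (top) and morulae (bottom). Points are the 3 LFD (blue) and 3 HFD (red) libraries, black bars are mean ± SD, and each panel has its own axis from 0 or below. In sperm Ago2 alone separates the diets, and 1 HFD library lies near 0 for Dicer1. In morulae Dicer1 and Nsun2 separate them, with the lowest HFD library at 93.9 and 154 CPM.

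In morulae the question was whether the father's diet changes the same transcripts in his embryos. Again no member passed. edgeR tested 13447 genes and called none (0%), with 858 at an unadjusted p under 0.05. DESeq2 called 18 genes and limma-voom 0. 5 of the 6 members passed the filter, all but Ang. Dicer1 had TMM-scaled levels of 93.9, 115 and 126 CPM with HFD fathers and 133, 135 and 145 CPM with LFD fathers. The groups did not overlap, and the log2 fold change was -0.30 (SE 0.11, edgeR unadjusted p = 0.0168, adjusted p = 0.696). Leaving out each library it stayed between -0.40 and -0.20, the latter without the HFD library of 11776603 counts. Nsun2 was also without overlap, at 154, 176 and 181 CPM against 183, 185 and 191.5, with a log2 fold change of -0.13 (SE 0.09, adjusted p = 0.859), which was -0.07 without that library. These were 2 of the 5 tested members, against 6.18% of all tested genes lower without overlap and 5.94% higher. On library totals Dicer1 alone of the members did not overlap, against 5.29%.

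Ago2, the most abundant member in morulae, stood at 917, 1210 and 1413 TMM-scaled CPM with HFD fathers and 1357, 1406 and 1410 with LFD fathers. The groups overlapped, and the log2 fold change was -0.24 (SE 0.12, adjusted p = 0.771). Leaving out the HFD library of 12153141 counts gave -0.09, and leaving out that of 11776603 counts gave -0.39. Rnh1 (2.59 ± 1.34 against 3.72 ± 0.715 CPM, n = 3 each) had an estimate of -0.52 with an SE of 0.47, and Trdmt1 (3.97 ± 0.669 against 3.97 ± 1.16) had 0.0009 with an SE of 0.38 (edgeR adjusted p = 0.9 and 0.9998). For Rnh1, leaving out the HFD library of 12153141 counts gave -0.19, and leaving out that of 11606215 counts gave -0.96. Ang did not pass the filter. It had 3, 11 and 23 counts in the HFD libraries and 0, 3 and 6 in the LFD libraries. The ratio after TMM scaling was 4.04, with a 95% counting interval of 1.92 to 9.53 that does not include the spread between libraries. The groups overlapped, and 23 of the 37 HFD counts came from the library of 11776603 counts.

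The diet effect on a member was compared between sperm and morulae by permuting the diet labels within each tissue over all 400 arrangements. The largest difference of the log2(TMM-scaled CPM + 1) effect was -1.36 for Ago2, which was -1.62 in sperm and -0.26 in morulae (p = 0.25, exact permutation test). By the same exact permutation test Nsun2 followed with -0.90 (p = 0.445), Dicer1 with -0.84 (p = 0.96) and Ang with -0.72 (p = 0.18). For Dicer1 the sperm effect on this scale was -1.15, with 1 count in 1 of the HFD libraries. Its edgeR estimates were -0.03 in sperm and -0.30 in morulae, so the sign of that difference depends on the measure. After adjustment over the 6 members the p-values lay between 0.75 and 0.96, so no difference between the tissues was shown. Permuting within each tissue assumes no diet effect in either, so this test cannot isolate a difference between the effects.

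**Figure D4:**
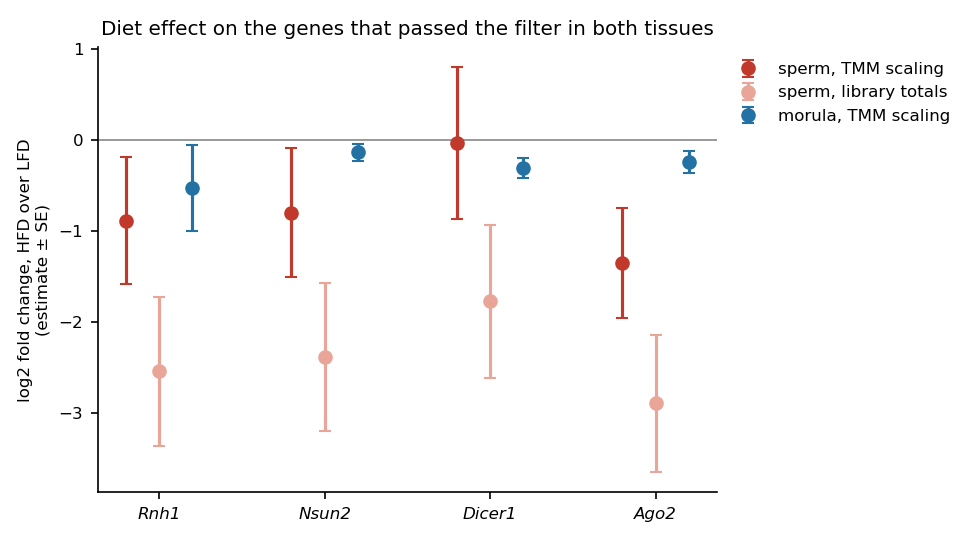
Log2 fold change of HFD over LFD with its SE for the 4 members that passed the filter in both sperm and morulae, with sperm shown under TMM scaling and under library totals. Every sperm estimate lies lower when scaled to library totals, down to -2.89 for Ago2, and morula estimates lie between -0.52 and -0.13.

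The other genes of tRNA cutting, processing and modification were taken from a list of 51 genes, of which 49 were listed in the tables. In sperm 25 passed the filter and none was called. By edgeR's unadjusted p under 0.05 there were 2 of the 25, beside 1122 of all 8643 genes tested. Both were lower on HFD. Ftsj1, a tRNA methyltransferase of the anticodon loop, had a log2 fold change of -4.28 (SE 1.29, adjusted p = 0.234). Wdr4, a partner of the tRNA methyltransferase Mettl1, had -3.35 (SE 1.21, adjusted p = 0.278). Mettl1 itself had 0.93 (SE 0.91). On HFD the mean levels of Ftsj1 and Wdr4 lay within the limit of 3 counts for a 0. They were 0.229 ± 0.397 and 0.344 ± 0.596 TMM-scaled CPM on HFD, against 6.42 ± 5.11 and 4.77 ± 1.96 on LFD (n = 3 each). The next lowest estimate was -1.98 for Nsun6, a methyltransferase related to Nsun2, and the highest were 1.08 for Qtrt2, of the enzyme that inserts queuosine, and 0.94 for Trmt61a. Of the estimates 18 lay below 0 and 7 above, with a median of -0.44 beside -0.07 over all tested genes. The median was -0.50 for 3 RNase genes, -0.23 for 5 small RNA genes, -0.57 for 6 genes of tRNA ends, introns and ligation and -0.99 for 11 modification genes.

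In morulae 37 genes of the list passed the filter and none was called, with 20 estimates above 0 and 17 below and a median of 0.0048 beside 0.01 over all tested genes. 3 of the 37 had an unadjusted p under 0.05, beside 858 of all 13447 genes tested. They were the tRNA demethylase Alkbh1 (0.33, SE 0.12), the nuclear export receptor Xpo5 (0.29, SE 0.12) and the tRNA thiolation enzyme Ctu1 (-0.55, SE 0.25). Their edgeR adjusted p ran from 0.696 to 0.767. The largest estimates in size were -1.27 (SE 0.60) for Prkra and -1.06 (SE 1.06) for Rnase1, and the highest was 0.39 (SE 0.28) for Tarbp2. Prkra and Tarbp2 encode partners of Dicer.

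**Figure D5:**
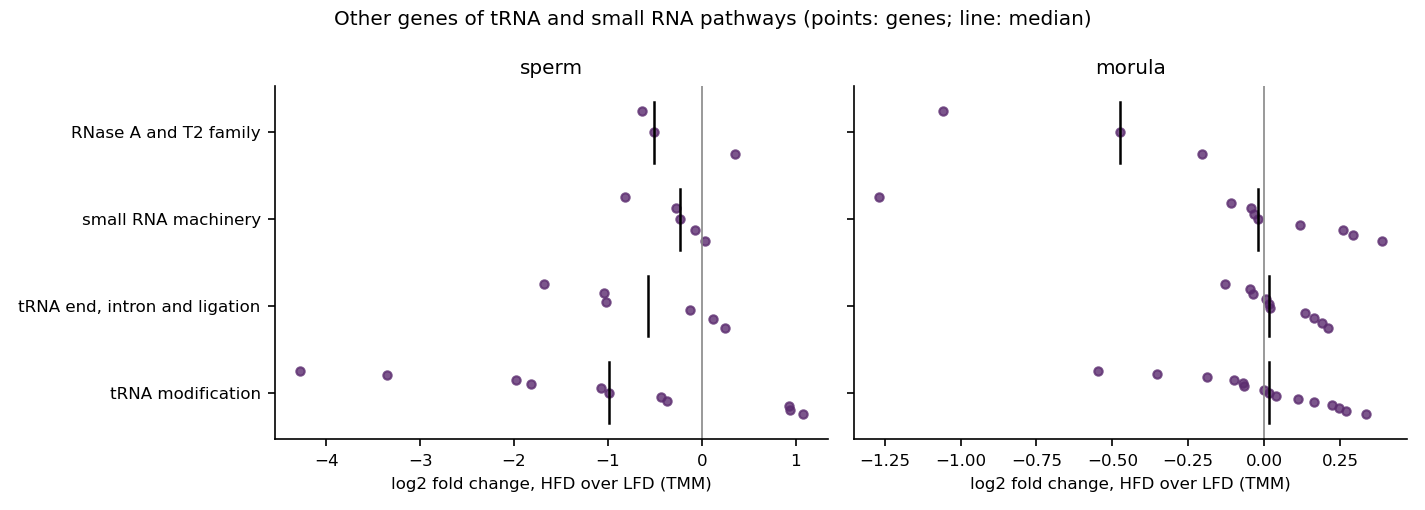
Log2 fold change of HFD over LFD for the other pathway genes that passed the filter, by list, in sperm (left) and morulae (right). Each point is a gene, vertical black lines are medians, and the axes differ in scale. The sperm estimates spread from -4.28 to 1.08 and those of morulae from -1.27 to 0.39.

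By tissue, the highest genes of this list were Xpo5 (43.1 ± 27.8 CPM) and the tRNA ligase Rtcb (35.3 ± 26.6) in sperm, the PIWI genes Piwil1 (309 ± 35.4) and Piwil2 (123 ± 13.5) in round spermatids, and the La protein gene Ssb (197 ± 32.5) and the CCA-adding enzyme gene Trnt1 (109 ± 2.18) in morulae. In the offspring tissues they were Rnase4 and Ssb, with Ssb at 204 ± 28.7 CPM in liver, 467 ± 98.0 in eWAT and 210 ± 23.3 in gastrocnemius (n = 6 each). Piwil1 had 2.91 ± 4.14 CPM in sperm and 0.334 ± 0.421 in morulae, and no counts in liver or gastrocnemius. Of the RNase list, Rnase9 and Rnase10 also serve as markers of epididymal epithelium. Rnase9 stood at 5.98 ± 9.60 CPM in sperm, from 0.246 to 25.4, and had no counts in morulae or liver.

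The genes whose log2(CPM + 1) was most like that of each member over the 36 libraries were sought among 17149 genes with a mean of at least 5 CPM in some tissue. The libraries share kit, depth and mitochondrial share within a tissue, and the offspring tissues differ in kit from the others. The coefficients therefore describe tissue and kit together, which cannot be told apart. For Ang the nearest were Alb (Pearson's r = 0.979, n = 36), which encodes albumin, the complement protease gene Masp1 (0.975) and Marc1 (0.974), while Rnase4 ranked 255th (0.897). For Rnh1 they were Arid5b (0.956), Irf1 (0.952) and Nr2f2 (0.951). For Nsun2 they were Zpr1 (0.966), Yme1l1 (0.960) and Elac2 (0.952), which encodes the enzyme that trims tRNA ends. For Dicer1 they were BC003965 (0.916), Lrp6 (0.905) and Mrpl49 (0.889), and for Ago2 Hnrnpd (0.977), Mga (0.972) and Rsl1d1 (0.972). With Spearman's rho in place of r, only Zpr1 remained among the nearest 3 genes of a member. Trdmt1 lay below 5 CPM in every tissue and was not searched.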

How the data were processed

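Counts per gene were deposited by the authors as 1 table per tissue. Per the paper's methods they trimmed reads with BBDuk, aligned them to GRCm38 with STAR and counted with featureCounts. Versions and the strand setting are not given in the sources used here. The counts were used as deposited. The round spermatid table has another annotation. Sperm and offspring tissues were sequenced single-end, round spermatids and morulae paired-end. For 3 morula samples the description names the other diet, and title and treatment were followed. The columns were assigned to tissues and, in sperm and morulae, to diets by name.

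Diet was tested with edgeR 4.0.16 (R 4.3.3; quasi-likelihood, filterByExpr with a minimum count of 10, TMM, Benjamini-Hochberg), the fits holding the 6 libraries of that tissue. DESeq2 1.42.0 and limma-voom 3.58.1 were alternatives. Exact two-sided permutation tests over libraries were run with Python 3.11.15 and numpy 2.4.6 on log2(CPM + 1). The smallest p for 3 against 3 libraries is 0.1, so single values were not tested alone by diet. No libraries agreed within sampling noise (lowest chi-square per degree of freedom 3.50). NOISeq, the authors' test, was not used here. On simulated counts with 200 genes changed by 2 on the log2 scale, edgeR recovered 12.5% in the sperm design (7642 genes) and 75.5% in the morula design (12947 genes). Intervals and the limit of 3 counts for a 0 cover counting error only.

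The members and lists were chosen with earlier results of these data known. All 6 members and Rnase4 are named. Of the pathway list, the 3 highest and 3 lowest estimates per diet comparison and the 2 highest levels per tissue are named, and 3 nearest genes per member. Gene symbols came from a table of gene names matched by Ensembl identifier. 2 list genes, Ang3 and Qtrtd1, had no match.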

Additional observations from a re-analysis of the deposited data

Results flagged for a closer look

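Among 28 groups of 6 libraries tested for a library that stands apart, 1 was found. Chance gives about 1 in 20 groups, so 1 among 28 is no more than chance would give. Rnh1 in liver was 51.0 CPM (104 counts) in the library of 2038532 counts, while the nearest was 40.9 and the lowest 35.4 CPM. The gap was 0.647 of the range, above Dixon's critical value for 6 samples. Without that library all the liver differences of Rnh1 kept their sign and passed the test.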

How the results depend on the processing

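Of 150 alternative diet estimates of the members, 130 kept their sign and their side of the threshold. In sperm, library totals brought Rnh1 (-2.54), Nsun2 (-2.39) and Ago2 (-2.89) past it, with the median of all genes at -1.82. The sperm estimate of Ang, with 4 counts, changed sign with DESeq2 (0.15) and limma-voom (0.36), and ran from -2.71 to 0.23 with each library left out. That of Trdmt1 was -0.72 with library totals and ran from -2.17 to 1.65, the lowest without the HFD library of 3679276 counts. Dicer1 was 0.12 with DESeq2 size factors and with DESeq2, and ran from -0.81 to 0.52 with each library left out. It was -1.13 with limma-voom, -1.27 with a replicate block on the numbers in the column names and -1.77 with library totals, and passed in none. In morulae Trdmt1, near 0, was -0.0025 with DESeq2 size factors, -0.011 without the filter and -0.0020 with DESeq2, and ran from -0.14 to 0.26. The cause of these changes was not tested.

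Against 0 genes called in sperm, library totals called 3266, no filter 41 and DESeq2 295, and leaving out each library called 0. Of the genes called with library totals, no filter and DESeq2, 3265, 3 and 23 were lower on HFD. A replicate block on the numbers in the column names called 2. Only 2 pairs share a number, their deviations correlated at 0.11 and -0.15, and they share only a number. The block changed no call of a member. In morulae no blocked fit was possible because the diets share no number. There, no filter called 63 genes, DESeq2 18, and leaving out each library 0 to 2, with 2 without the HFD library of 11776603 counts.

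Of 36 tissue differences, the number past the threshold stayed between 22 and 28 around 25. As CPM of nuclear counts, Trdmt1 (-0.10) and Nsun2 (-0.17) of round spermatids minus morulae, Dicer1 of liver minus gastrocnemius (-0.024), and Ago2 of sperm minus round spermatids (0.48) and of eWAT minus gastrocnemius (-0.15) changed sign. Trdmt1 of eWAT minus gastrocnemius was 0.36 with a pseudocount of 0.1, and ran from -0.37 to 0.15 with each library left out. Of the 18 differences called with both denominators, 16 passed in every alternative run. In the shallowest libraries of sperm and gastrocnemius, levels near 1 and 8 CPM are within the limit of a 0. For the next shallowest gastrocnemius library that limit was 3.21 CPM.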
